A study of Mus musculus with 80 samples.

Results

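In a tet-Off reporter library, the step from 0.01 to 0.1 ng/ml doxycycline (dox) took the RNA of many integrated reporters below detection and left others with a larger share of what remained. The comparison covers 32 of the 80 samples in the series, namely the RNA and DNA barcode libraries of both doses from 4 cell pools (A, B, C and D), with 2 cultures of each pool as replicates. Of 10903 reporters in the deposited table, the 10785 with 10 or more DNA counts in all 8 DNA libraries of their pool were kept: 2241 in A, 2263 in B, 3127 in C and 3154 in D. EBRTcH3 are mouse embryonic stem cells in which the ROSA26 locus drives the tetracycline-controlled transactivator. Every group used here carried that transactivator and piggyBac integrations of the barcoded tet-Off plasmid. The groups differed only in dox, at 0.01 or 0.1 ng/ml for 72 h, while the cultures of the same pools at 0 and at 100 ng/ml served as readouts outside the main fit. Per the labels, the cells had been sorted for low eGFP, and the 2 cultures of a pool are technical replicates, split from it and then grown apart, so p-values measure the spread between those replicates within 4 pools. The titles and the plasmid name a tet-Off promoter, whereas the growth and treatment protocols speak of a mouse PGK promoter. The titles were followed. The 8 RNA libraries at dox 0.01 held 1091313 to 1745854 counts over the kept reporters, and the 8 at dox 0.1 held 799553 to 1691627.

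The tetracycline-controlled transactivator binds its operator and drives the promoter next to it, and dox takes it off the DNA. A tet-Off reporter is therefore active without dox and loses its activator as the dose rises. Because piggyBac inserts the same cassette at many places, reporters differ in their genomic surroundings and in a short barcode that is read from RNA and from DNA. The RNA count of a barcode over its DNA count gives the expression of a reporter per copy, and the values below are log2 of that ratio. No added standard links the RNA amounts of different libraries, so "lower" and "higher" are relative to the scaling of the libraries, and a loss common to every reporter goes unseen.

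Barcodes were 15 to 17 bases long. Those below belong, in each pool, to the reporter called lower with the most dox 0.01 RNA counts among those left with 0 at dox 0.1, and to the one with the largest fitted rise among those called higher with 10 or more counts in each of the 4 RNA libraries. They are written in lower case in the orientation of the deposited table.
Pool A, chromosome 12 at 85918923, lost: atgtttaaagttagac
Pool B, chromosome 1 at 90177087, lost: acgacgaggcgttagc
Pool C, chromosome 2 at 122150506, lost: cattctagcgtctttc
Pool D, chromosome 7 at 4421765, lost: agtccgaactccggtt
Pool A, chromosome 5 at 143894827, higher: cttccatgttgccaca
Pool B, chromosome 2 at 20660550, higher: ttgattcgacgcttat
Pool C, chromosome 2 at 20589063, higher: taaagaaacagactga
Pool D, chromosome 16 at 64873694, higher: cgcctaatagacgggg
The base composition of the barcodes did not separate the groups defined below. G and C made up 41.2% ± 12 of the bases of barcodes called lower, 40.9% ± 12 of those called higher and 41.1% ± 12 of the rest (SD over 1697, 766 and 8322 barcodes).

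Reporters without any RNA count went from rare to common at this step. In pool A, 1.12% of reporters had none in culture 1 at dox 0.01 and 25.7% at dox 0.1. In culture 2 the shares were 0.937% and 30.2%. Pool B went from 1.28% to 22.2% and from 0.928% to 26.2%. Pool C went from 1.85% to 23.0% and from 2.43% to 35.0%, and pool D from 1.33% to 23.1% and from 2.03% to 34.8%. All 8 cultures moved the same way and the doses did not overlap. The mean difference was 26.0 percentage points ± 4.92 (SD, n = 8 cultures; exact two-sided permutation test swapping doses within cultures, p = 0.00781, the smallest that 256 arrangements allow). Over 4 pools the smallest possible exact p is 0.125. Thinning both libraries of a culture to the smaller total left the difference at 25.9 points. Thinning evens out the totals only, and not the counts left to reporters outside the top 1% described next. The top 1% of reporters, taken anew in each library, held 14.6% ± 0.67 of all RNA counts at dox 0.01 and 33.4% ± 3.05 at dox 0.1 (SD, n = 8 cultures). The rise in each culture was 15.1 to 22.6 points (exact permutation p = 0.00781).

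**Figure D1:**
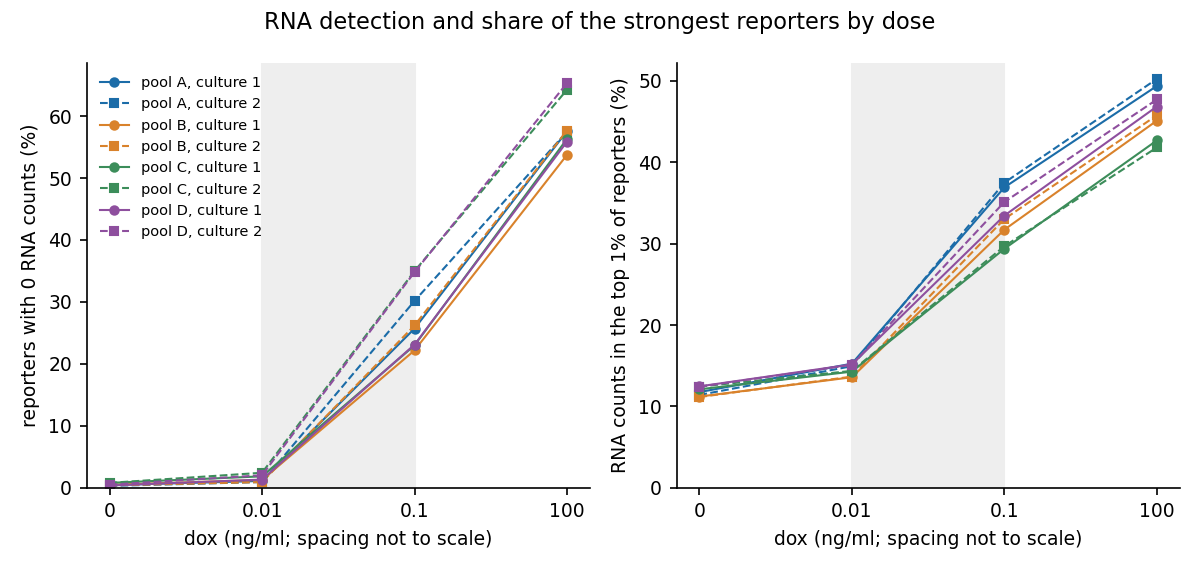
Each line is 1 culture over the 4 doses, with the percent of reporters lacking RNA counts on the left and the percent of RNA counts taken by the top 1% on the right. The shaded step is the one compared here: at dox 0.01 at most 2.43% of reporters were without RNA, and at dox 0.1 between 22.2% and 35.0%.

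Most reporters kept some RNA. Of the 10520 reporters with RNA in both dox 0.01 libraries, 64.5% kept RNA in both dox 0.1 libraries, 18.7% in one and 16.8% in neither. Where RNA was found in only 1 of the 2 dox 0.1 libraries, that library held a median of 22 counts (quartiles 13 and 38, 2005 reporters), against a median of 4 at dox 0.01 (194 reporters). A dox 0.1 library could thus miss a reporter that gave this many counts in its partner. Since PCR reads were counted without molecular identifiers, floors cover counting error only, and the bounds below concern reads and say nothing firm of RNA levels.

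Relative to TMM scaling, 1697 reporters had a lower RNA/DNA ratio at dox 0.1 than at 0.01 and 766 a higher one (edgeR quasi-likelihood test of the dose effect on RNA over that on DNA, Benjamini-Hochberg adjusted within pools at 0.05). These are 15.7% and 7.1% of the 10785 reporters tested. Of the lower ones, 69.1% were at 0 in both dox 0.1 RNA libraries and 23.9% still had RNA in both. Every reporter called higher was detected in both. The lower share was 22.7%, 16.5%, 12.6% and 13.4% in pools A to D (mean 16.3% ± 4.60, SD, n = 4 pools), and the higher share 7.45%, 8.0%, 6.49% and 6.82% (mean 7.19% ± 0.67). Pool A thus held the largest share of lower calls, while the pools lay close together in higher calls. Its reporters also had the most counts, with a median of 477 over both dox 0.01 RNA libraries against 422, 287 and 299 in B to D. The share with 0 RNA counts in both dox 0.1 libraries was 19.5%, 15.8%, 18.5% and 19.6% in A to D. The part of depth in the lower calls was not tested. The median log2 change over all reporters was −0.64, and the pool medians averaged −0.64 ± 0.10 (SD, n = 4 pools).

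These counts moved with the fit. Lower calls made up 68.9% of all calls with TMM, 90.5% (3287 lower, 344 higher) with library totals and 98.6% (6667 lower, 92 higher) when libraries were scaled to the reporters strongest at dox 100; the median change was then −1.60 and −2.87. The labels say that each culture was divided over the doses, and with the culture as a block 344 reporters were lower and 393 higher, of which 344 and 384 were among the calls without it. With DNA as an offset 32 were lower and 215 higher. Without either dox 0.01 culture, 0 passed (edgeR; 2439 and 2449 at an unadjusted p under 0.05), whereas without either dox 0.1 culture 3185 and 2275 were lower and 1063 and 1070 higher. The cultures of a pool differed more at dox 0.1: the median absolute difference between them was 0.77 ± 0.04 on the log2 scale there and 0.45 ± 0.04 at dox 0.01 (SD, n = 4 pools), over the reporters with 100 or more RNA counts in both dox 0.01 libraries. Its part in these counts was not tested.

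The change itself was shared by the cultures of a pool. Over all reporters, the change in culture 1 and that in culture 2 had a Pearson r of 0.50, 0.44, 0.45 and 0.45 in pools A to D. Over the 6306 reporters with 100 or more RNA counts in both dox 0.01 libraries, r was 0.58, 0.54, 0.58 and 0.56. These values are descriptions across reporters, which share their libraries. Among these well counted reporters 1.46% had no RNA in either dox 0.1 library, 8.66% were called lower and 11.2% higher. From the 10th to the 90th percentile their fitted change spanned 4.08 ± 0.22 on the log2 scale (SD, n = 4 pools), with a median of −0.33 ± 0.12.

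Among the reporters called lower that had 0 RNA counts in both dox 0.1 libraries, the 2 with the most counts at dox 0.01 in each pool had over 200 in each library there. In pool A the reporter on chromosome 12 at 85918923 (minus strand) went from 434 and 577 RNA counts to 0 and 0, beside 233 and 184 and then 141 and 161 DNA counts. Its RNA/DNA ratio was at least 125-fold lower, against a floor of 3 counts over both libraries (edgeR adjusted p = 0.00367). The pool B reporter on chromosome 1 at 90177087 (plus strand) went from 300 and 314 RNA counts to 0 and 0, at least 72.2-fold lower (adjusted p = 0.00348). Both cultures of each reporter thus lost all of their RNA counts while DNA stayed present. The pool C reporter on chromosome 2 at 122150506 (minus strand) went from 356 and 301 to 0 and 0, at least 86.5-fold lower (edgeR adjusted p = 0.00348). The pool D reporter on chromosome 7 at 4421765 (plus strand) went from 316 and 352 to 0 and 0, at least 89.1-fold lower (adjusted p = 0.00406). These 4 also had 0 RNA counts in both dox 100 libraries. The next in each pool, on chromosome 2 at 27481021 (A), chromosome 9 at 31702681 (B), chromosome 7 at 3425977 (C) and chromosome 11 at 95623661 (D), were at least 111-fold, 110-fold, 68.2-fold and 57.0-fold lower. At dox 0 all 8 had between 342 and 728 RNA counts in each culture, so none was among the weakest reporters.

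Other reporters fell steeply but kept RNA counts in both dox 0.1 libraries, as their choice required. Not all of them were stronger per copy at dox 0 than the lost reporters above. The pool A reporter on chromosome 12 at 107248118 (plus strand) went from 3364 and 3270 RNA counts to 65 and 171, and dox 100 gave 0 and 0. Its fitted log2 change was −4.74 ± 0.73 (SE, edgeR adjusted p = 0.00505). The pool A reporter on chromosome 19 at 14965723 (plus strand) went from 1883 and 1983 to 89 and 42 counts, a change of −4.06 ± 0.59 (adjusted p = 0.00455). In a fit on all 16 libraries of the pool this call and that at 163485576 on X, below, were lost (edgeR adjusted p = 0.0692 and 0.0617). In both reporters each dox 0.1 library was far below each dox 0.01 library. In pool B, those on chromosome 5 at 144566945 and chromosome 19 at 4943191 changed by −3.63 ± 0.60 and −3.45 ± 0.46. In pool C, those on chromosome 17 at 83623551 and the X chromosome at 163485576 changed by −3.93 ± 0.72 and −3.86 ± 0.72, and in pool D those on chromosome 11 at 88088932 and chromosome 15 at 84252309 by −3.94 ± 0.67 and −3.80 ± 0.53 (SE, edgeR adjusted p at most 0.0122). Those on chromosomes 5, 17 and X did not pass with the culture as a block (adjusted p = 0.0506, 0.0704 and 0.0585), nor did chromosome 7 at 3425977 (0.0605).

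A smaller group was called higher at the higher dose of the drug that removes the activator. The reporters named in this paragraph also gained RNA counts, but not every reporter called higher did so in both cultures. Without an added standard, such a gain is a larger share of the library and not a measured rise in RNA. The pool C reporter on chromosome 2 at 20589063 (minus strand) went from 782 and 762 RNA counts to 8790 and 7580, beside 163 and 154 and then 93 and 76 DNA counts. Its fitted log2 change was 5.81 ± 0.26 (SE, edgeR adjusted p = 3.1e-05). Dox 0 gave 345 and 371 RNA counts and dox 100 gave 21677 and 18901, so the 2 libraries of each dose stood above those of every lower dose. The pool B reporters on chromosome 2 at 20660550 and chromosome 6 at 64980370 went from 1028 and 1281 to 4936 and 3579 and from 661 and 657 to 3707 and 4635 RNA counts, both with a fitted change of 4.15 (SE 0.31 and 0.40, edgeR adjusted p = 0.000869 and 0.00169). In pool A the reporters on chromosome 5 at 143894827 and chromosome 8 at 44390965 changed by 4.42 ± 0.76 and 4.41 ± 0.55 (SE, adjusted p = 0.00672 and 0.00381). In pool C the one on chromosome 4 at 55491383 changed by 5.34 ± 0.75 (adjusted p = 0.00443), and DNA counts of 154 and 278 had gone to 131 and 33.

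In pool D the 2 largest rises under the same count minimum rested on less. The reporter on chromosome 16 at 64873694 went from only 20 and 11 RNA counts to 91 and 43, and dox 100 gave 0 and 0. The one on chromosome 5 at 104142884 went from 1314 and 753 to 4557 and 2189 RNA counts while its DNA count in culture 2 went from 163 to 12. Their fitted changes of 4.53 ± 1.01 and 4.52 ± 0.92 (SE, edgeR adjusted p = 0.0182 and 0.0134) did not pass with the culture as a block (0.073 and 0.0617), nor did chromosome 4 at 55491383 (0.0551). Under scaling to the reporters strongest at dox 100 the pool D changes were 2.25 and 2.22 and did not pass (edgeR adjusted p = 0.0776 and 0.0593). The single strongest reporter of each pool at dox 0.01 gave no call. Those on chromosome 4 at 128924279 (A), chromosome 11 at 119803528 (B), chromosome 9 at 21570308 (C) and chromosome 10 at 21541376 (D) had fitted changes of 0.30 ± 0.47, −0.69 ± 0.68, 0.51 ± 0.53 and −1.0 ± 0.36, with edgeR adjusted p from 0.0873 to 0.682. That on chromosome 9 passed as higher without dox 0.1 culture 1 (1.15, adjusted p = 0.0199). Under scaling to the reporters strongest at dox 100 all 4 passed as lower, with changes of −1.73, −2.98, −1.86 and −3.28 (edgeR adjusted p at most 0.0165). That on chromosome 10 also passed as lower with library totals (−2.08, edgeR adjusted p = 0.00636) and in the DESeq2 Wald test (−1.07, adjusted p = 0.0312). The others passed in neither.

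Weak reporters lost their RNA counts most often. To keep noise in the level apart from the change, reporters of a culture were divided into quintiles by the dox 0.01 level in the other culture of the pool. From the lowest to the highest quintile, 70.4% ± 6.63, 39.9% ± 9.64, 18.9% ± 6.97, 6.81% ± 3.16 and 1.61% ± 0.82 had no RNA count at dox 0.1 (SD, n = 8 cultures). The median log2 change, by library totals with a pseudocount of 1, was −2.70 ± 0.40, −2.45 ± 0.40, −1.81 ± 0.16, −1.41 ± 0.08 and −0.77 ± 0.13 in the same order. The lowest quintile lay 1.94 below the highest on average (a difference of −1.94 ± 0.33, lower in 8 of 8 cultures; exact two-sided permutation test, p = 0.00781, the smallest possible). The lowest quintile had a median of only 12 to 27 RNA counts at dox 0.01, so its change cannot be read below that limit, and the difference was −4.84 with a pseudocount of 0.1 and −0.52 with 5. Among reporters with 100 or more RNA counts in the other culture it was −1.25 ± 0.19, also in 8 of 8 cultures.

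Calls by the level at dox 0, whose libraries were not in the fit, followed the level less evenly. From the lowest to the highest decile, the share called lower was 22.6% and 26.9% in the 2 weakest deciles, 13.1% in the sixth and 9.17% in the strongest, while the share called higher went from 2.78% to 18.8%. By quintile, the lowest held 25.6% ± 7.06 lower calls and the highest 9.36% ± 5.15 (SD, n = 4 pools), a mean difference of 16.3 percentage points in the same direction in 4 of 4 pools (exact permutation p = 0.125, the smallest possible). That difference turned to −12.2 points under scaling to the reporters strongest at dox 100 and to −1.19 with DNA as an offset, and it was 6.76 with library totals, 3.37 with the culture as a block and 0 without either dox 0.01 culture. Within the reporters with 100 or more RNA counts in both dox 0.01 libraries, the share of lower calls was 7.56% ± 5.31, 9.73% ± 1.70, 8.83% ± 3.50, 8.74% ± 2.68 and 8.99% ± 5.14 from the lowest to the highest quintile. These means lay within the spread of the pools. The share of higher calls within the same reporters was 13.3% ± 9.47, 8.15% ± 2.81, 6.59% ± 1.85, 11.3% ± 1.23 and 15.4% ± 2.42, without a steady rise. The lowest quintile held only 87 such reporters.

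**Figure D2:**
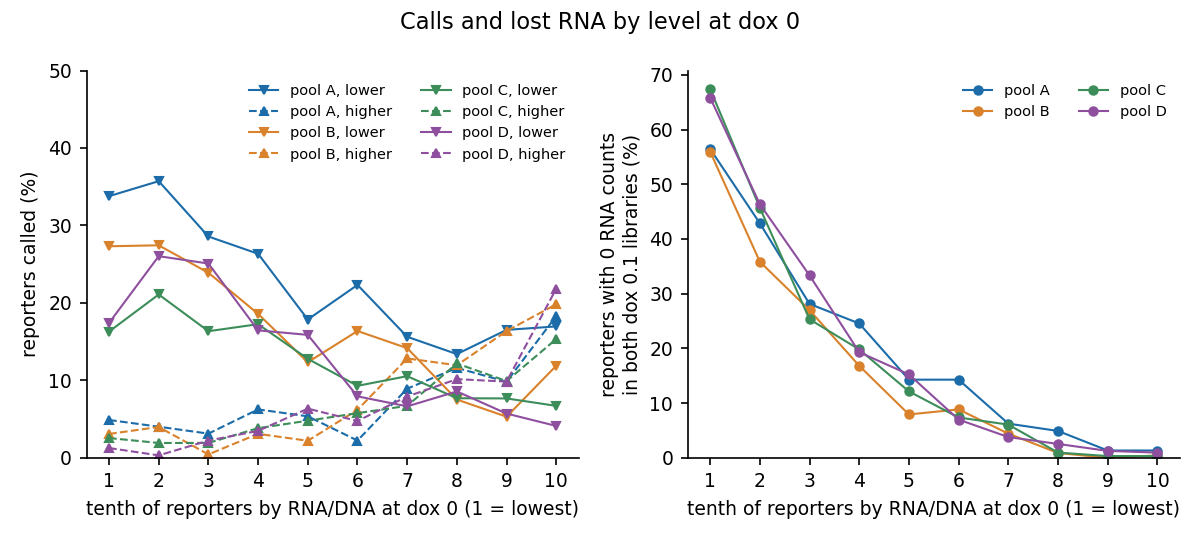
For each decile of reporters by RNA/DNA at dox 0, the left plot gives the percent called lower (solid) and higher (dashed) per pool and the right plot the percent with 0 RNA counts in both dox 0.1 libraries. The share without RNA went from 62.3% in the weakest decile to 0.741% in the strongest over all pools.

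RNA at dox 100, in libraries that took no part in the calls, separated the directions. Of the reporters called higher, 94.6%, 93.9%, 96.1% and 96.3% in pools A to D had RNA in both dox 100 libraries. Of those called lower the shares were 7.66%, 7.24%, 4.33% and 4.50%, and of the rest 33.4%, 33.3%, 27.9% and 26.9%. The 3 groups did not overlap in any pool. Reporters called higher held 16.9% ± 2.53 of the RNA counts at dox 0, 24.3% ± 3.12 at dox 0.01, 61.0% ± 4.01 at dox 0.1 and 74.4% ± 2.57 at dox 100 (SD, n = 4 pools), although they were 7.1% of the reporters. The shares at 0.01 and 0.1 follow from the choice of these reporters. Those at 0 and 100, and the detection at dox 100 above, come from libraries outside the fit, but may follow from that choice in part. Over both dox 0.01 libraries, reporters called higher had a median of 1926.5 RNA counts, those called lower 119 and all reporters 347. Reporters called lower held 13.4% ± 5.53 of the RNA counts at dox 0 and 0.59% ± 0.24 at dox 100. At dox 0 the median level of the reporters called higher was 1.5 ± 0.14 above the pool mean on the log2 scale and that of the reporters called lower was −0.76 ± 0.20.

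Calls were not needed to see this order. Among the well counted reporters, the 2896 with RNA in both dox 100 libraries had a median change of −0.37 ± 0.10 by library totals, the 1440 with RNA in one −1.70 ± 0.12 and the 1970 with RNA in neither −2.37 ± 0.16 (SD, n = 8 cultures). The first group lay 2.00 ± 0.12 above the last, higher in 8 of 8 cultures (range 1.85 to 2.15; exact two-sided permutation p = 0.00781, the smallest possible; comparison chosen after the data were seen). The groups rest on the dox 100 libraries of both cultures, so the cultures of a pool share them. Over 4 pools the exact permutation p was 0.125, the smallest possible. Taken within quintiles of the dox 0 level and averaged, the difference was 1.99 ± 0.14. The change at this step in one culture and the change from dox 0 to dox 100 in the other culture of the pool, which share no library, had a Pearson r of 0.52, 0.52, 0.55 and 0.54 in pools A to D over these reporters. With the dox 0 level of the other culture r was 0.10 to 0.17.

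**Figure D3:**
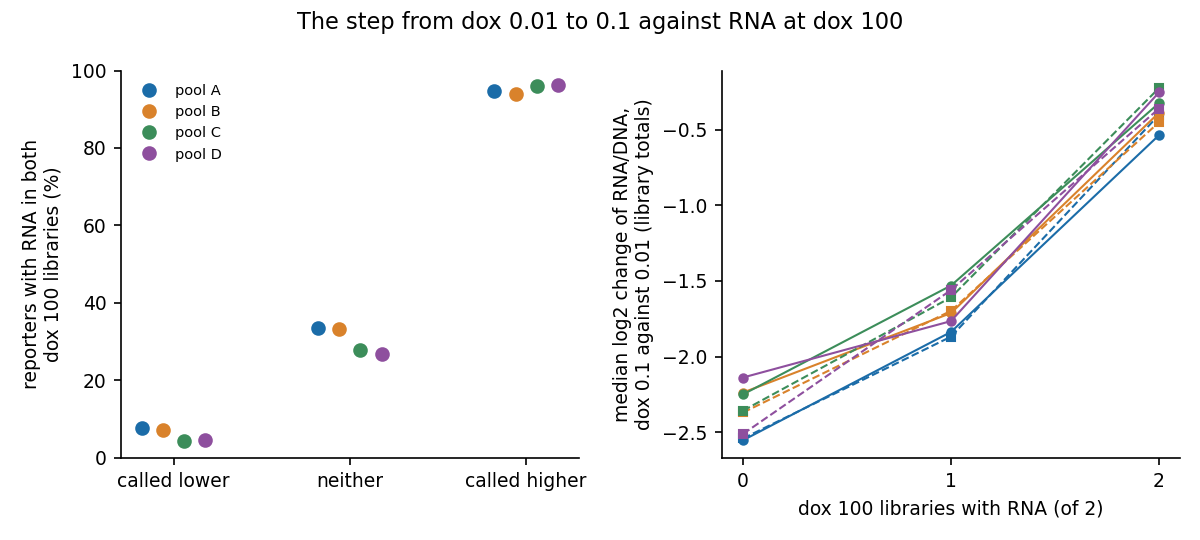
The left plot gives, per pool, the percent of reporters with RNA in both dox 100 libraries among those called lower, neither and higher. The right plot gives, per culture (circles and solid lines culture 1, squares and dashed lines culture 2), the median log2 change of well counted reporters by the number of dox 100 libraries with RNA. Each line rises, from between −2.55 and −2.14 to between −0.54 and −0.23.

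Reporters that sat close together in the genome changed alike, over a shorter distance than their levels. Positions are those of the deposited table, and mm9 is the build that the submitters' processing notes name. For pairs of reporters from different pools, which share no culture or library, Pearson's r of the change was 0.57 under 1 kb (205 pairs), 0.48 at 1 to 5 kb, 0.52 at 5 to 10 kb, 0.48 at 10 to 20 kb, 0.34 at 20 to 50 kb and 0.23 at 50 to 100 kb. It was 0.13 at 100 to 200 kb (4778 pairs), 0.02 at 200 to 500 kb (12994 pairs) and −0.00 at 500 kb to 1 Mb (20210 pairs). The level at dox 0 had an r of 0.48 under 1 kb, 0.24 at 100 to 200 kb, 0.19 at 200 to 500 kb and 0.17 at 500 kb to 1 Mb. The likeness in level thus reached into distances at which the changes no longer resembled each other. These values are descriptions, since a reporter enters several pairs.

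Under 10 kb, r of the change was 0.52 over 1079 pairs and ran from 0.40 to 0.59 over the 6 combinations of pools. After subtracting the mean change of reporters of the same dox 0 decile it was 0.45. That leaves differences in level within a decile and at dox 0.01, where the level had an r of 0.45 over these pairs. The part of level in what remains was not tested. Between well counted reporters r of the change was 0.57 (687 pairs), against 0.21 for their dox 0 level. From the change in a single culture it was 0.37 or 0.42. Reporters that carried the same barcode in different pools showed no such likeness. They formed 415 pairs over 385 barcodes, at least 832731 bp apart where both lay on one chromosome, and had an r of −0.03 for the change and 0.03 for the dox 0 level. Over the 143 of these pairs with both reporters well counted, r was −0.12 for the change and 0.16 for the level, the latter not far from the 0.21 of neighbours.

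The barcode tacactgtcggattga shows this. In pool A it lay on chromosome 10 at 67602598 (plus strand) and went from 4567 and 3886 to 20919 and 22466 RNA counts, which the fit put at 3.20 ± 0.45 (SE, edgeR adjusted p = 0.0042). In pool B it lay on chromosome 3 at 90247439 (minus strand) and went from 3015 and 2700 to 1399 and 1141, a fitted change of 0.31 ± 0.40 (adjusted p = 0.62). The 2 other pairs with the most RNA did not differ in this way. The barcode aataggactaactaaa had fitted changes of 0.90 ± 0.44 on chromosome 11 at 100801996 (pool C) and of 0.62 ± 0.46 on chromosome 17 at 47737003 (pool D), and tgtataaactcagaaa had fitted changes of 0.08 ± 0.44 and −0.00 ± 0.35 at 2 places on chromosome 1.

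**Figure D4:**
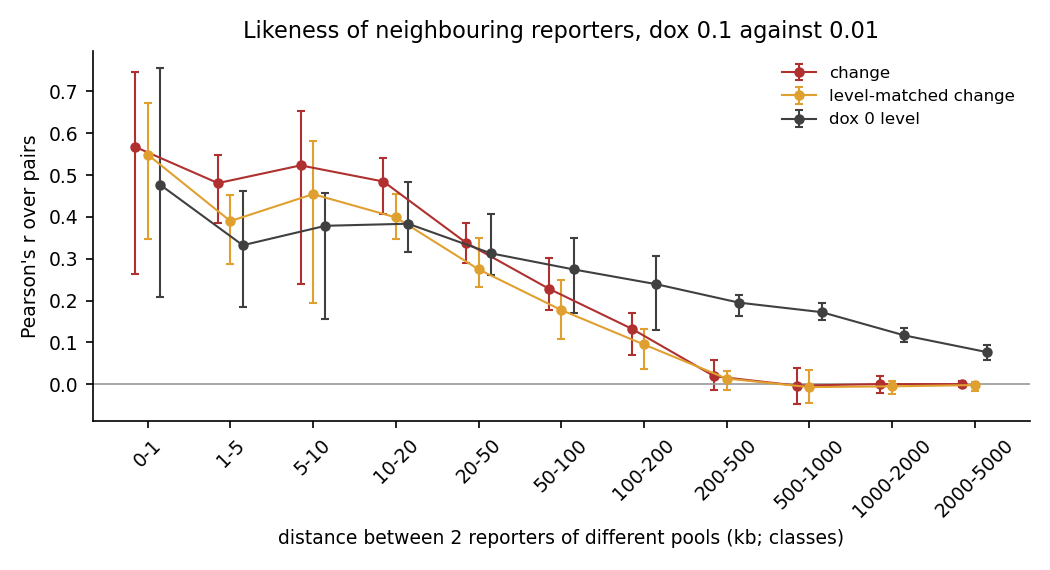
Pearson's r over pairs of reporters from different pools is plotted by class of distance (classes not to scale), for the change from dox 0.01 to 0.1, for the change after subtracting that of the same dox 0 decile, and for the dox 0 level. Bars span the 6 combinations of pools. The change reaches 0.02 at 200 to 500 kb, where the level still has 0.19.

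Calls ran together in the same way. Next to a reporter of another pool called higher within 10 kb, 48.6% of neighbours were called higher and 0.993% lower (403 ends of pairs). Next to one called lower, 18.8% were lower and 2.90% higher (138 ends). Over all pairs under 10 kb, 18.7% of the ends were higher and 6.39% lower, against 7.1% and 15.7% of all reporters, so close pairs lie where higher calls are common. At 100 kb to 1 Mb the shares next to a higher reporter were 9.64% higher and 13.4% lower, near the 7.54% and 14.7% over all pairs of that distance.

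The closest pairs show both cases. On chromosome 9, the reporters at 89502317 (pool A) and 89502328 (pool C), 11 bp apart, went from 131 and 99 RNA counts to 3 and 0 and from 24 and 18 to 0 and 0, and both were called lower (edgeR adjusted p = 0.0152 and 0.0226). On chromosome 12, those at 71900496 (D) and 71900566 (A) were both lower, with 41 and 16 counts going to 0 and 0 and 2363 and 2459 going to 261 and 201. On chromosome 9, those at 14418058 (B) and 14418336 (A) went from 1810 and 2013 to 293 and 160 and from 79 and 96 to 1 and 0. In each of the last 2 pairs the weaker member was left with at most 1 count while the stronger kept RNA in both libraries. Of these 6 calls, only that at 14418336 passed with the culture as a block, and in the fit on all 16 libraries it and that at 14418058 did not pass (edgeR adjusted p = 0.0555 and 0.066).

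The closest pairs called higher could come from 1 pool, so their distances are not set against those above. On chromosome 8, the reporters at 28169008 (D) and 28169009 (C), on opposite strands, changed by 2.60 ± 0.30 and 2.01 ± 0.49. On chromosome 5 those at 120039243 and 120039244, both in pool A and on opposite strands, changed by 2.97 ± 0.40 and 1.90 ± 0.39, and on chromosome 2 those at 119683687 and 119683707, both in pool D, by 2.82 ± 0.27 and 3.58 ± 0.43 (SE, edgeR adjusted p at most 0.0276). Under scaling to the reporters strongest at dox 100 only the call at 119683707 was kept (1.29, edgeR adjusted p = 0.0286). The changes at 120039243, 28169008 and 119683687 were then 0.94, 0.33 and 0.53 (adjusted p = 0.0813, 0.384 and 0.11), and those at 28169009 and 120039244 turned to −0.37 and −0.13. The last 2 did not pass with the culture as a block either (adjusted p = 0.108 and 0.0577).

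Opposite calls were seen at close range too. The first such pair lay 839 bp apart on chromosome 3: the reporter at 54391279 (C) went from 705 and 747 RNA counts to 862 and 492 and was called higher (1.65 ± 0.43), and that at 54392118 (B) went from 44 and 27 to 0 and 0. The next, 1368 bp apart on chromosome 6, paired 28 and 27 counts that went to 0 and 0 at 136968019 (A) with 756 and 788 that went to 4310 and 3050 at 136969387 (C), a change of 3.61 ± 0.39. The third was 7947 bp apart on chromosome 1, with 5317 and 5968 going to 5709 and 6490 at 9880150 (B) and 62 and 64 going to 0 and 0 at 9888097 (C). In all 3 the lost member had under 100 RNA counts in each library at dox 0.01 and lay in the second dox 0 decile of its pool. Only the call at 136969387 passed with the culture as a block, and under scaling to the reporters strongest at dox 100 those at 54391279 and 9880150 became −0.73 and −1.12. The reporter at 9880150 then passed as lower, as did its partner at 9888097 (edgeR adjusted p = 0.0157 and 0.00053). With library totals the changes at 54391279 and 9880150 were 0.72 and 0.20 and did not pass (edgeR adjusted p = 0.192 and 0.63). The higher call at 136969387 was kept under both scalings.

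Places that held many reporters lost less. Of the 3390 reporters with no other within 100 kb, 22.1% were called lower and 3.07% higher. With 1 or 2 others the shares were 15.4% and 6.29%, with 3 to 5 others 8.57% and 12.5%, and with 6 or more others 2.99% and 22.7% (401 reporters). The order held in each of the 4 pools for lower calls and for higher calls. The dox 0 level moved with it, from a median of −0.68 ± 0.07 around the pool mean to 1.49 ± 0.10 (SD, n = 4 pools). With the mean change of the same dox 0 decile subtracted, the mean went from −0.34 ± 0.10 with no other reporter to −0.06 ± 0.06, 0.48 ± 0.13 and 1.12 ± 0.13. The last lay 1.46 ± 0.14 above the first, in 4 of 4 pools (exact permutation p = 0.125, the smallest possible; comparison chosen after the data were seen). Counting only reporters of other pools gave 1.44 ± 0.56, and well counted reporters alone gave 1.36.

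**Figure D5:**
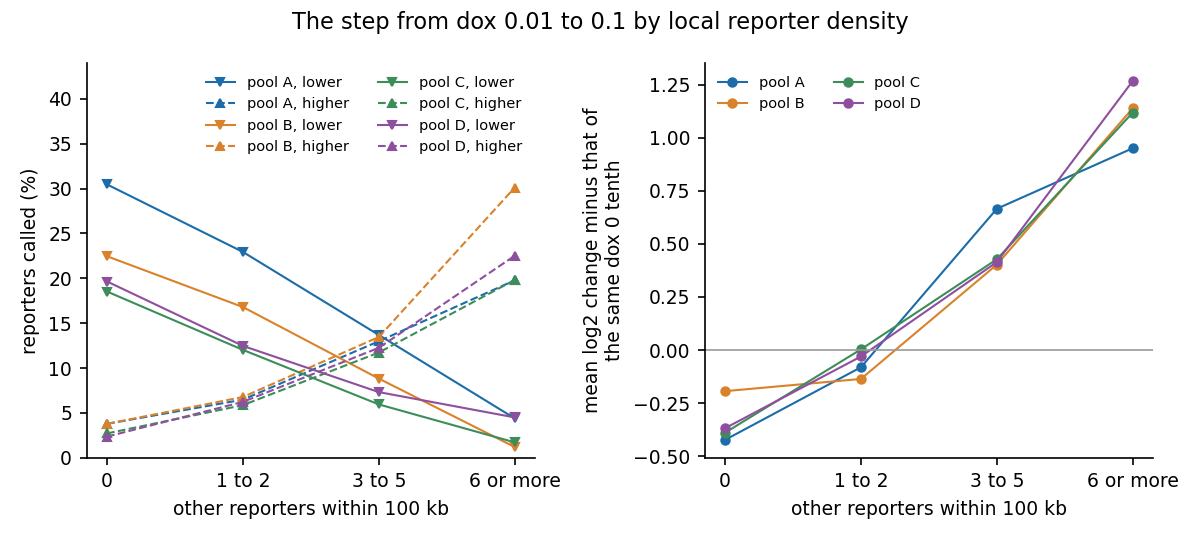
By the number of other reporters within 100 kb, the left plot gives the percent called lower (solid) and higher (dashed) in each pool, and the right plot the mean log2 change after subtracting that of the same dox 0 decile. Lower calls go from 22.1% to 2.99% over all pools and higher calls from 3.07% to 22.7%.

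Some regions held runs of reporters called higher. Joining reporters across gaps of 10 kb or less gave 12 chains with at least 5 members and 2 pools, 68 reporters in all. Of these, 24 were called higher and 2 lower, beside 7.1% and 15.7% of all reporters. Chains are dense places by construction, and of reporters with 6 or more others within 100 kb 22.7% were higher and 2.99% lower. In 9 chains every call was higher, but 4 of the 9 held a single call; 1 chain held only a lower call, 1 both kinds and 1 no call. The SD of the change within chains was 1.19, against 1.70 over the same reporters and 2.06 over all. The regions below were picked with their values known. One lay on chromosome 5 from 104127348 to 104153604, where 5 of 6 reporters were higher (changes of 2.91 to 4.52), and the sixth, from pool C at 104153604, had 2184 and 2311 RNA counts and then 2595 and 1660 (0.98 ± 0.34, edgeR adjusted p = 0.083).

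The pool C reporter with the largest named rise had others around it. Within 100 kb of the reporter on chromosome 2 at 20589063 lay 8 others, of which 7 were called higher. Over all reporters 7.1% were higher, and of those with 6 or more others within 100 kb 22.7%. All 4 of pool C, between 20511968 and 20594955, and all 4 of pool B, between 20597051 and 20660550, were higher, with fitted changes of 1.82 to 5.81 and 2.48 to 4.15. The pool B reporter at 20597051 went from 3622 and 4419 RNA counts to 25133 and 25524, and dox 100 gave 32901 and 52095. The only one of pool D, at 20644371, had 99 and 61 counts and then 157 and 102 (1.63 ± 1.02, edgeR adjusted p = 0.309).

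On chromosome 1 from 84848567 to 84870854, 5 of 8 reporters from 4 pools were higher, by 1.15 to 3.71 apart from the one at 84856836, whose fitted 6.58 rested on 1 and 1 RNA counts that went to 2 and 63. On chromosome 16 from 44516686 to 44532768, 0 of 7 reporters from 4 pools were higher and 1 was lower, near the 7.1% and 15.7% of all reporters. With 6 or more others within 100 kb the shares were 22.7% and 2.99%. The lower one, in pool A at 44527038, went from 3316 and 3324 RNA counts to 505 and 597 (−1.54 ± 0.35, edgeR adjusted p = 0.0165). Its dox 0 level of 2.35 above the pool mean was close to those of the chromosome 1 reporters at 84848835 and 84866244 (2.44 and 2.16), which did not pass the test with changes of 0.84 and 0.87.

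Windows of several megabases gave no call as designed. Of 358 windows of 5 Mb with 2 or more reporters in each of the 4 pools, 0 (0%) passed (limma moderated test over pools, Benjamini-Hochberg adjusted; 47 at an unadjusted p under 0.05, smallest adjusted p = 0.192). With the change of the same dox 0 decile subtracted, 0 of 358 passed (0%; 39 unadjusted, smallest adjusted p = 0.0569). A window passed with weights by the number of reporters and without pool B (1 each); level-matched, 2 passed with a pseudocount of 5, and 1 each with weights and without pool B, C or D. Named by size, the 3 lowest windows were on chromosome 2 from 130000001 to 135000000 (−1.85 ± 1.76 from the pool mean, SD, n = 4 pools), chromosome 18 from 55000001 to 60000000 (−1.69 ± 1.01) and chromosome 8 from 15000001 to 20000000 (−1.66 ± 0.39). The highest were on chromosome 2 from 20000001 to 25000000 (1.81 ± 1.68), chromosome 16 from 80000001 to 85000000 (1.46 ± 0.51) and chromosome 4 from 125000001 to 130000000 (1.43 ± 0.35). In the first of these the pools stood at 0.97, 3.16, 3.27 and −0.15 in A to D. The pools have their reporters at different sites of the window, and a difference between pools was not tested.

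Chromosomes differed by little. Of 20 chromosomes, 0 (0%) passed the same limma test (6 at an unadjusted p under 0.05). Chromosome 12 was lowest at −0.28 ± 0.17 (SD, n = 4 pools, lower in 4 of 4; limma adjusted p = 0.0801), followed by chromosomes 9 and 13 at −0.19 ± 0.08 and −0.16 ± 0.13. Chromosome 11 was highest at 0.24 ± 0.18 (adjusted p = 0.106), before chromosome 17 at 0.21 ± 0.15 and chromosome 4 at 0.19 ± 0.12. X reporters stood at 0.12 ± 0.14 (203 reporters, adjusted p = 0.362). With a pseudocount of 0.1, 1 chromosome passed, and with 5, 2 did. Strand made no visible difference: 15.8% of the 5320 plus-strand and 15.7% of the 5465 minus-strand reporters were called lower, and 7.33% and 6.88% higher.

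DNA abundance did not move with dose at a level the test could detect. Of 10785 reporters, 0 (0%) had a DNA count that passed between dox 0.1 and 0.01 (edgeR; 414 at an unadjusted p under 0.05, and 0 called by the DESeq2 Wald test with 521 unadjusted). The fitted DNA change nevertheless leaned against the call, with a median of 0.13 on the log2 scale for reporters called lower and −0.17 for those called higher, against 0.00 over all. DNA is the denominator of the ratio that was tested, so these medians follow in part from the choice of the reporters. The part of DNA in the calls was not tested beyond the fit with DNA as an offset, given above.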

How the data were processed

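Barcode counts of 4 pools were taken from the deposited table. Per the file headers, the authors' columns are expression and normalization counts; per the labels' protocols these are barcodes amplified from cDNA and genomic DNA. The values are whole numbers with unequal totals, that is, counts that were not normalized. The submitters' processing notes list Bowtie2 2.0 and mm9 with no role. How barcodes were called was not given in the sources used here. Positions are those listed in that table; the mapping libraries and nearby genes were not analysed here.

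Reporters needed 10 or more DNA counts in all 8 DNA libraries; 118 were left out, and 0 columns of sample values stayed unused. Per pool, edgeR 4.0.16 (R 4.3.3) fitted a quasi-likelihood model (assay, dose, and assay by dose, which is the effect tested) to the 8 libraries of both doses. RNA and DNA libraries were TMM scaled separately, and p-values were Benjamini-Hochberg adjusted per pool at 0.05. The SE is the absolute log2 change divided by the square root of F; it is unreliable where almost no RNA is left. Levels are log2 RNA/DNA with 1 added to each count, relative to library totals. Windows and chromosomes were tested with limma 3.58.1, and values over cultures or pools by exact permutation tests. A chain joins reporters with gaps of at most 10 kb. Well counted reporters had 100 or more RNA counts in both dox 0.01 libraries. The fits were tested on simulated data. The DNA libraries of dox 0.01 and 0.1 held 965850 to 1571280 counts over the kept reporters.

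Named reporters were, in each pool, the 2 called lower with the most dox 0.01 RNA counts and none at dox 0.1, the 2 steepest falls and the 2 largest rises with 10 or more counts in all 4 RNA libraries, and the 1 strongest at dox 0.01 with 50 or more DNA counts; and the 3 closest pairs called lower and called in opposite directions, each from different pools, and the 3 closest called higher from any pool. Windows and chromosomes were the 3 lowest and 3 highest.

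The replicate number marks 1 of the 2 cultures of a pool, each of which was divided over the doses, per the labels' protocols, and so pairs the libraries. Deviations of same-numbered libraries from their group means had correlations of 0.03, −0.03, 0.02 and −0.01 in pools A to D. Alternatives were other scalings, DESeq2 1.42.0, the replicate block, DNA as an offset, other minima and pseudocounts, and leaving out each culture; with 1 culture left, it is assumed to vary like the others. Members and lists were chosen with earlier results of these data known. Other tools were scipy 1.17.1 with numpy 2.4.6, pandas 2.3.3 under Python 3.11.15, and matplotlib 3.10.9.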

Additional observations from a re-analysis of the deposited data

Results flagged for a closer look

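Of 40 sets of 4 pools or 8 cultures examined, 1 had a value far from the others. On chromosome 9, the mean change from the pool mean was −0.0785 in pool D, against −0.24, −0.22 and −0.22 in pools A to C. Chance alone flags about 1 in 20 such sets.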

How the results depend on the processing

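Named reporters numbered 46, of which 25 were lower, 17 higher and 4 neither. Of the 42 calls, 42 were lost without dox 0.01 replicate 1 and 42 without replicate 2, 26 with DNA as an offset, 19 with the replicate block and 4 in the fit on all 16 libraries. With library totals 4 named calls, all higher, no longer passed. Under scaling to reporters strong at dox 100, 5 higher calls kept their sign but did not pass. Other named higher calls changed sign there, as given below. The lower and higher counts were 3287 and 344 with library totals, 6667 and 92 under scaling to reporters strong at dox 100, 32 and 215 with DNA as an offset, and 344 and 393 with the replicate block, which gave 0 DNA calls. Leaving out 1 culture gave 0 to 3185 lower and 0 to 1070 higher calls, with a median change from −0.99 to −0.64. That median was −1.60, −2.87, −0.50, −0.47 and −0.87 with library totals, scaling to reporters strong at dox 100, a DNA minimum of 100, a mean of 10 RNA counts and the replicate block. The lowest minus highest quintile in percent lower turned to −12.2 with the strong-reporter scaling and −1.19 with the offset. With library totals, chromosome 4 at 128924279 and chromosome 9 at 21570308 turned to −0.65 and −0.41; with the strong-reporter scaling they turned to −1.73 and −1.86, and 120039244, 28169009, 54391279 and 9880150 to −0.13, −0.37, −0.73 and −1.12. Leaving out 1 culture gave −0.26 to 0.69 for chromosome 4 at 128924279 and −1.20 to 0.34 for chromosome 11 at 119803528. The cause was not tested.

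Over 4 pools or without 1 culture per pool the exact p cannot go below 0.125, by construction. The differences were then 26.0 (22.1 to 30.0) points without RNA, 18.8 (18.3 to 19.3) points in the top 1%, −1.94 (−1.98 to −1.90) between quintiles and 2.00 (1.92 to 2.08) by RNA at dox 100, each in the direction of the text. Windows passing numbered 1 with weights by the number of reporters and 1 without pool B; level-matched, 2 with a pseudocount of 5, 1 with weights and 1 each without pool B, C or D. Chromosomes passing numbered 1 and 2 with a pseudocount of 0.1 and 5. Neighbours under 10 kb had an r of 0.37 to 0.42 from 1 culture. The alternatives named here for the dox 100 and density comparisons were chosen after seeing the data. Depth limits the weakest quintile, with 12 to 27 RNA counts at dox 0.01.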
